A study of Mus musculus with 9 samples.

Results

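Messages of the translation initiation factors were followed in cultured mouse cardiac fibroblasts that carried more or, by label, less junctophilin-2. The genes were taken by name: every gene of the deposited table whose symbol begins with Eif and a digit from 1 to 6. Left out were the eIF2 kinases (4 Eif2ak genes), 3 genes with Eif2s3 names and 9 pseudogenes marked by -ps in other names. Eif2s3 is the name of the eIF2 gamma subunit, which was therefore not followed. The rule gave 69 of the 56953 genes in the table. The 9 libraries were made from polyA RNA of primary heart fibroblasts of wildtype adult male C57BL/6N mice, harvested 72 h after infection. Each group had 3 libraries and every group carried an adenovirus, with GFP in the control (Ad-GFP), junctophilin-2 in Ad-JP2 and a construct named shJP2 in Ad-shJP2. Junctophilin-2 is known as a tether between the plasma membrane and the endoplasmic or sarcoplasmic reticulum. The labels do not say whether the libraries of a group came from separate cultures or animals, so the p-values measure only the spread between these libraries, which may be technical.

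Initiation factors bring the small ribosomal subunit, the initiator tRNA and the capped mRNA together. eIF1, eIF1A, eIF3, eIF5 and the eIF2 complex with GTP and the initiator tRNA load the small subunit, while eIF4E, eIF4G and eIF4A bind the cap and open the leader of the mRNA. eIF2B recharges eIF2 with GTP and is the target of the integrated stress response, the 4E-BPs hold eIF4E away from eIF4G, and eIF5B joins the large subunit.

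Jph2 read 128 to 132 TPM (a transcript's share of all transcripts in the library, a level per length) in the Ad-GFP libraries, 637 to 737 TPM in Ad-JP2 and 116 to 123 TPM in the libraries labelled Ad-shJP2. It rose in Ad-JP2 by 2.40 ± 0.05 (SE) on the log2(TPM + 1) scale, and its change under Ad-shJP2 was -0.11 ± 0.05 (limma adjusted p = 0.0724), so the gene was at most slightly lower in the libraries labelled Ad-shJP2. All 10 fibroblast markers listed were above 1 TPM on average. They summed to 11282 to 11379 TPM in Ad-GFP, 11164 to 11911 in Ad-JP2 and 7329 to 7563 in Ad-shJP2, where 10 of 10 fell; 5 of the 10 rose in Ad-JP2. Of 9 macrophage and leukocyte markers 6 were above 1 TPM on average and Cd3e was at 0 everywhere. Those 9 summed to 2401 to 2426 TPM, 2197 to 2238 TPM and 2789 to 2837 TPM in the same order of groups. Of the 7 of them tested, 2 were called higher and 2 lower in Ad-JP2, and 4 higher and 2 lower in Ad-shJP2. Beside these marker counts, 13.4% of all genes tested were called higher and 1.64% lower in Ad-JP2. In Ad-shJP2 the shares were 21.8% higher and 37.7% lower. Estimated depth was 36.95 to 45.8 M reads in the Ad-GFP and Ad-JP2 libraries and 21.3 to 33.25 M reads in the Ad-shJP2 libraries. The part of these marker and depth differences in the results that follow was not tested. In bulk RNA, fewer cells of a type and less RNA per cell cannot be told apart.

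Of the 69 genes, 49 reached 1 TPM in at least 3 libraries and were tested. The other 20 stayed at or below 0.658 TPM in every library, 14 of them at 0 throughout, and they were the 17 numbered Eif1ad genes, Eif4e1b, Eif4ebp3 and Eif2c5, an older Argonaute-type name caught by the rule. Of the 49, 5 (Eif3j1, Eif4e3, Eif4a3l1, Eif5a2 and Eif5b) did not reach 1 TPM in all 9 libraries. Eif3j1 reached it in 3 Ad-JP2 libraries, 1 Ad-GFP library and no Ad-shJP2 library, and Eif5b in 3, 2 and none, so both passed this filter with the help of the group where they were highest.

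In Ad-JP2, 11 of the 49 tested initiation factor messages rose and 2 fell against Ad-GFP, by limma on all 14215 genes tested with an adjusted p under 0.05. That is 26.5% of the members, where 15.0% of all genes tested were called, 13.4% higher and 1.64% lower. The rises were carried by a few subunits and accessory factors (Eif3j2, Eif3a, Eif2s2, Eif3j1, Eif5, Eif5a2, Eif4g3, Eif1a, Eif4e3, Eif3e and Eif4g2), and the median member stood at 0.00 (all genes 0.01). The libraries of the 2 groups did not overlap for 21 of the 49 (42.9%), beside 32.2% of all genes. With median-of-ratios scaling 11 were higher and 4 lower. The members just named ranged from a rise of 0.35 (Eif4g2) to 1.25 (Eif3j2) on the log2(TPM + 1) scale.

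In the libraries labelled Ad-shJP2, 22 of the 49 rose and 17 fell against the same Ad-GFP libraries. That is 79.6% of the members beside 59.4% of all genes tested, 21.8% higher and 37.7% lower. The changes ran from -1.46 (Eif2s2) to 0.99 (Eif1ad), with a median of 0.04 where all genes had -0.11. For 41 of the 49 (83.7%) the libraries did not overlap, beside 65.3% of all genes. Median-of-ratios scaling moved the median of all genes from -0.115 to -0.016 and gave 26 members higher and 14 lower. Because both comparisons use the Ad-GFP libraries, they are not independent. Between Ad-JP2 and Ad-shJP2 directly, 18 members were higher and 25 lower in Ad-JP2, 87.8% of them beside 64.4% of all genes (40.3% higher, 24.1% lower). Their libraries did not overlap for 43 (87.8%), beside 67.1% of all genes.

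**Figure D1:**
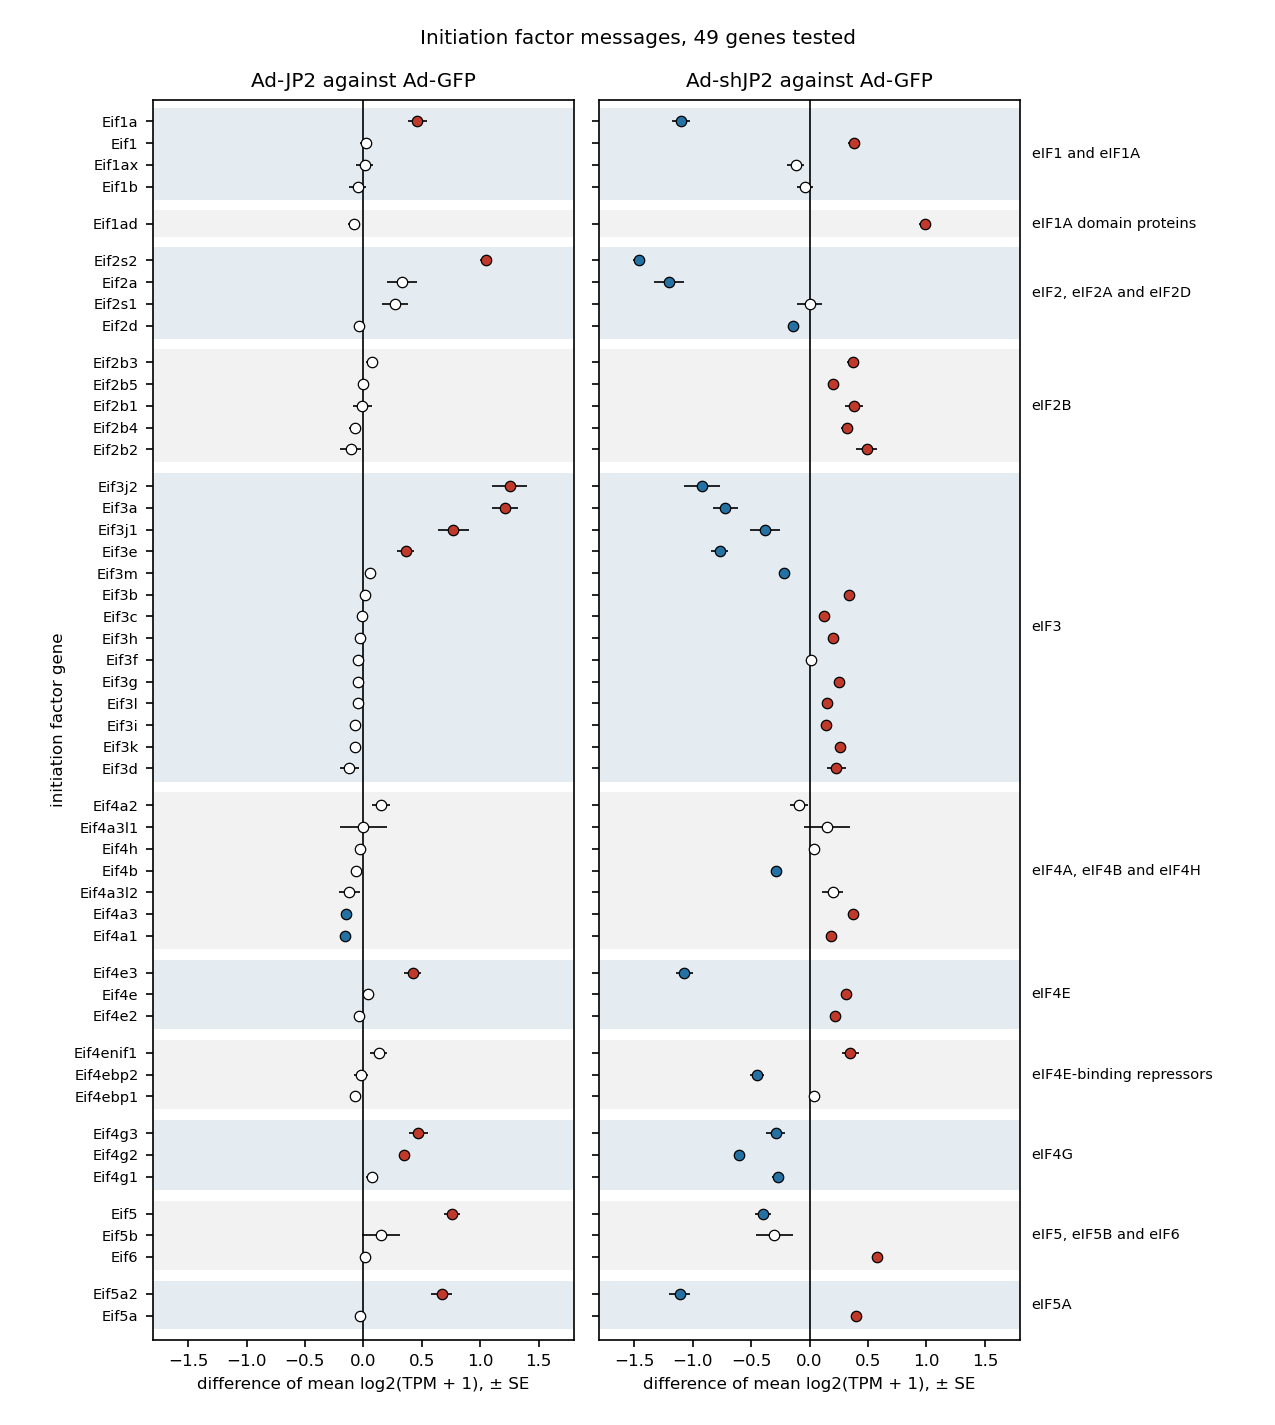
Difference of mean log2(TPM + 1) from Ad-GFP (x axis, bars are the SE of the limma fit) for the 49 tested genes (y axis, grouped by complex), in Ad-JP2 (left) and Ad-shJP2 (right), with n = 3 libraries a group. Red points were called higher, blue points lower and white points were not called; in the left panel 11 are red and 2 blue, in the right panel 22 are red and 17 blue.

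The 250 bases upstream of the RefSeq start (GRCm38.p6) are shown for the members with the largest rise among those with an entry in the promoter table: Eif3a (chr19:60790694-60790943, minus strand) and Eif2s2 (chr2:154892907-154893156, minus strand) in Ad-JP2, Eif1ad (chr19:5366563-5366812, plus strand) and Eif2b2 (chr12:85219231-85219480, plus strand) in Ad-shJP2. Of the 49 tested members 38 had an entry. The choice was made after the values were seen. Capitals mark matches on either strand to 5 motifs, none of which contains another. The GC box was searched as GGGCGG. The CCAAT box was searched by the letters of its name. The ETS core was searched as CCGGAA. The E-box was searched as CACGTG. The TATA box was searched as TATAAA.
Eif3a: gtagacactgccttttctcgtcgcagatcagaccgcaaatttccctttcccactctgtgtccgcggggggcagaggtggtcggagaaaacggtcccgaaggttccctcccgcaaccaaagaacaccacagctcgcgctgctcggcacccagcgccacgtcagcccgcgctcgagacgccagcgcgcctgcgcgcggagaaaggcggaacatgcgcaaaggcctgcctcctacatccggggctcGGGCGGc
Eif2s2: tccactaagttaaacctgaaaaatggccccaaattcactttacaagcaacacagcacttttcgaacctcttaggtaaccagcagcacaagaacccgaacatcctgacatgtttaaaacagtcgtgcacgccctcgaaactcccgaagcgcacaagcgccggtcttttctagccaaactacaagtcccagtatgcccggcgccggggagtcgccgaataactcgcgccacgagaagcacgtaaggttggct
Eif1ad: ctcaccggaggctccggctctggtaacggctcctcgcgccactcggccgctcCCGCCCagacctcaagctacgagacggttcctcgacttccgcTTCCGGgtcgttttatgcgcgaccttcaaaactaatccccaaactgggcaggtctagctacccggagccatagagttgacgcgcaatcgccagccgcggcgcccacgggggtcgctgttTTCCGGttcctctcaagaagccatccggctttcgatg
Eif2b2: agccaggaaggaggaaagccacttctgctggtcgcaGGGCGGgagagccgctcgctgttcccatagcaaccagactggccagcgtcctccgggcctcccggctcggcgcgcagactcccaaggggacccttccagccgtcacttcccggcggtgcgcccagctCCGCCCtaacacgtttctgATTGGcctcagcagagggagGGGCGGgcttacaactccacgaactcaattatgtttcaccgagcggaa
The Eif2s2 window held none of the 5 motifs and the Eif3a window 1 GC box, while Eif1ad had 1 GC box and 2 ETS cores and Eif2b2 had 3 GC boxes and 1 CCAAT box. A GC box lay in 71.1% of the 38 member windows, against 32.7% of the 32851 windows of the table. An ETS core lay in 36.8% against 12%, an E-box in 18.4% against 6.0%, a CCAAT box in 28.9% against 33.8% and a TATA box in 7.9% against 12.4%. The median GC content of the windows was 60.2% for the members and 52.4% for all. The members gave 1 window each, while the full set held every listed start and was not limited to tested genes. The 2 sets are therefore not alike, and no share among tested genes was computed. The GC box share was 66.7% of 6 members called higher in Ad-JP2, 66.7% of 18 called higher in Ad-shJP2 and 83.3% of 12 called lower in Ad-shJP2.

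eIF1 and eIF1A sit on the small subunit during scanning and set how strictly the start codon is chosen. Eif1a, which encodes an eIF1A, was called in each comparison with Ad-GFP. It read 54.6, 55 and 53.8 TPM in Ad-GFP, 72.2, 71.6 and 83.2 TPM in Ad-JP2 and 26.3, 21.9 and 26.6 TPM in Ad-shJP2. The groups did not overlap: Ad-JP2 was high in all 3 libraries and Ad-shJP2 low in all 3. Eif1a rose by 0.46 ± 0.08 in Ad-JP2 (adjusted p = 0.0039) and fell by 1.10 ± 0.08 in Ad-shJP2 (adjusted p = 3.34e-06). The rise was not called after correction of each library for GC content and length (0.19, adjusted p = 0.0738). Eif1ax, the X-linked gene for eIF1A, was the more abundant of the pair with 147 ± 6.06 TPM (SD, n = 3) for Ad-GFP, 149 ± 14.6 for Ad-JP2 and 136 ± 5.85 for Ad-shJP2. It was called in neither comparison, except lower in Ad-shJP2 after the correction (-0.25, adjusted p = 0.0165) and without Ad-JP2 replicate 3 (-0.12, adjusted p = 0.0342).

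Eif1, which encodes the start codon gatekeeper eIF1, read 361, 383 and 374 TPM in Ad-GFP, 359, 370.3 and 404 TPM in Ad-JP2 and 487, 467 and 502 TPM in Ad-shJP2. Only the Ad-shJP2 libraries stood apart from the other 6. Its change there was 0.38 ± 0.05 (adjusted p = 9.99e-05). The pseudogene rows Eif1-ps1 and Eif1-ps2 can share reads with it, and the sum of the 3 rows was 451 ± 22.9, 450.5 ± 30.9 and 573 ± 5.72 TPM in the same order. Its paralogue Eif1b was level at 54.8 ± 2.30, 53.0 ± 3.84 and 53.4 ± 3.64 TPM and was called only after the GC and length correction, in Ad-shJP2 (-0.30, adjusted p = 0.00441). Eif1ad, whose product carries an eIF1A-like domain, read 25.3, 26.5 and 28.6 TPM in Ad-GFP, 24.6, 25.1 and 26.3 TPM in Ad-JP2 and 54.0, 56.6 and 52.2 TPM in Ad-shJP2. Ad-GFP and Ad-JP2 overlapped, and Ad-shJP2 lay 2.02-fold above Ad-GFP in mean TPM. This was the largest rise of any tested member in that comparison, 0.99 ± 0.05 (adjusted p = 5.46e-07), and 0.75 after the GC and length correction.

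eIF5, the GTPase-activating protein that lets eIF2 hydrolyse its GTP at the start codon, was higher in Ad-JP2 and lower in Ad-shJP2. Eif5 read 66.7, 58.4 and 62.6 TPM in Ad-GFP, 114, 106 and 99.7 TPM in Ad-JP2 and 46.7, 44.6 and 50.4 TPM in Ad-shJP2. No library of a group overlapped those of another. The changes were 0.76 ± 0.07 (adjusted p = 9.64e-05) and -0.40 ± 0.07 (adjusted p = 0.000847), and both held after the GC and length correction at 0.62 and -0.25.

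The eIF2 complex carries the initiator tRNA, and its alpha and beta subunits parted. Eif2s2, the beta subunit, read 22.5, 24.8 and 23.9 TPM in Ad-GFP, 49, 49.6 and 52.0 TPM in Ad-JP2 and 7.96, 7.67 and 8.30 TPM in Ad-shJP2. The 3 groups were far apart, with Ad-JP2 2.12-fold above Ad-GFP and 6.29-fold above Ad-shJP2 in mean TPM. The changes were 1.05 ± 0.05 in Ad-JP2 (adjusted p = 4.44e-06) and -1.46 ± 0.05 in Ad-shJP2 (adjusted p = 4.18e-08). That is the largest fall of a member on the log2(TPM + 1) scale, while in mean TPM Eif5a2 (3.84-fold) and Eif4e3 (3.22-fold) fell further than Eif2s2 (2.97-fold). The changes of Eif2s2 were 0.76 and -1.16 after the GC and length correction. Eif2s1, the alpha subunit that the stress kinases phosphorylate, read 56.3, 49.7 and 53.8 TPM in Ad-GFP, 55.8, 66.2 and 71.4 TPM in Ad-JP2 and 61.0, 52.0 and 47.7 TPM in Ad-shJP2. Those groups overlapped and Eif2s1 was called in neither comparison. It was called higher in Ad-shJP2 only after the GC and length correction (0.36, adjusted p = 0.0121).

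Eif2a and Eif2d encode factors that can deliver tRNA without eIF2. Eif2a read 29.6, 26.2 and 22.6 TPM in Ad-GFP, 32.3, 36.2 and 30.5 TPM in Ad-JP2 and 11.8, 11.9 and 8.69 TPM in Ad-shJP2. All Ad-shJP2 libraries lay under the other 6, while the Ad-GFP and Ad-JP2 values adjoined. It fell by 1.20 ± 0.13 in Ad-shJP2 (adjusted p = 4.83e-05), and its value in Ad-JP2 was 0.33 ± 0.13 (adjusted p = 0.15), which was called only with the replicate number as a block (adjusted p = 0.0364). Eif2d changed little, from 34.0 ± 1.06 TPM in Ad-GFP to 33.1 ± 1.23 in Ad-JP2 and 30.7 ± 0.686 in Ad-shJP2. Its fall of 0.14 ± 0.04 in Ad-shJP2 (adjusted p = 0.0178) was not called without Ad-GFP replicate 2 (adjusted p = 0.0674) or Ad-shJP2 replicate 1 (0.0575), nor with median-of-ratios scaling (-0.03, adjusted p = 0.58).

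eIF2B is the 5-subunit exchange factor of eIF2. In Ad-JP2 none of its 5 messages was called by limma, with changes from -0.11 to 0.07. In Ad-shJP2 all 5 rose, by 0.20 to 0.49. Among all genes tested, 15.0% were called in Ad-JP2, and 21.8% were higher and 37.7% lower in Ad-shJP2. Eif2b2, the beta subunit, read 92.8, 89.4 and 96.3 TPM in Ad-GFP, 94.4, 90.6 and 73.8 TPM in Ad-JP2 and 121, 142 and 131 TPM in Ad-shJP2. The Ad-shJP2 libraries were the highest 3 of the 9, and the change was 0.49 ± 0.09 (adjusted p = 0.00124). Eif2b1, the alpha subunit, went from 38.8 ± 3.42 to 50.7 ± 3.74 TPM (0.38 ± 0.08), Eif2b3 from 29.3 ± 0.322 to 38.3 ± 1.52 TPM (0.37 ± 0.05), and Eif2b4 from 20.5 ± 1.36 to 25.7 ± 0.893 TPM (0.32 ± 0.05). Summed eIF2B was 229 ± 5.68 TPM for Ad-GFP, 222 ± 15.3 for Ad-JP2 and 300.3 ± 6.62 for Ad-shJP2. The summed eIF2, eIF2A and eIF2D messages were 137 ± 4.06, 181 ± 9 and 103 ± 7.50 TPM, without the gamma subunit of eIF2. The GC and length correction left Eif2b1 (0.34) and Eif2b3 (0.44) called and ended the calls of Eif2b2 (0.19, adjusted p = 0.0914), Eif2b4 (0.06, adjusted p = 0.418) and Eif2b5 (0.08, adjusted p = 0.0875).

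**Figure D2:**
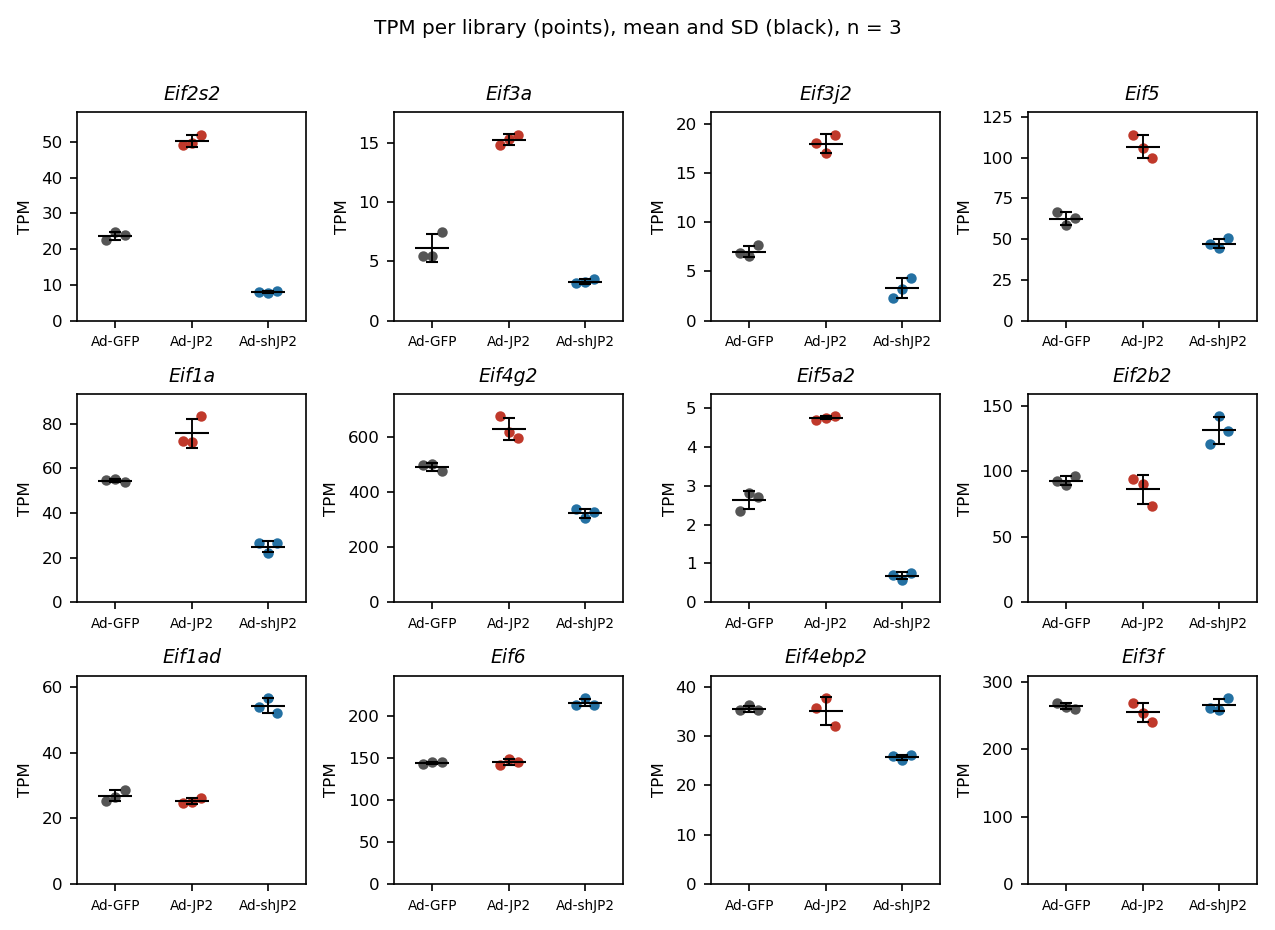
TPM (y axis, starting at 0) of 12 initiation factor genes in each library (points) with the mean and SD of each group (black), n = 3. Eif2s2 sits between 49 and 52.0 TPM in Ad-JP2 and between 7.67 and 8.30 TPM in Ad-shJP2, while the Eif3f groups overlap.

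eIF3 is the large scaffold that binds the small subunit and links it to eIF4G. All 14 of its gene rows were tested: 4 rose and none fell in Ad-JP2, and 8 rose and 5 fell in Ad-shJP2. Of all genes tested 13.4% rose and 1.64% fell in Ad-JP2, and 21.8% rose and 37.7% fell in Ad-shJP2. Message levels were far from equal. In Ad-GFP they ran from Eif3k at 364 ± 5.41 TPM down to Eif3m at 64.1 ± 1.16, Eif3j2 at 7.02 ± 0.594, Eif3a at 6.12 ± 1.21 and Eif3j1 at 0.953 ± 0.118 TPM. In Ad-JP2 the 3 subunits at the low end of this order had the largest changes, and Eif3e came next.

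Eif3a, the largest core subunit, read 5.41, 5.43 and 7.52 TPM in Ad-GFP, 14.8, 15.3 and 15.7 TPM in Ad-JP2 and 3.13, 3.24 and 3.5 TPM in Ad-shJP2. The groups did not overlap, although Ad-GFP replicate 3 lay above its 2 fellows. The change was 1.21 ± 0.11 in Ad-JP2 (adjusted p = 0.000104, 0.79 after GC and length correction) and -0.72 ± 0.11 in Ad-shJP2 (adjusted p = 0.000424). The fall was not called after that correction (-0.21, adjusted p = 0.14). Eif3a made up 0.268% of summed eIF3 TPM for Ad-GFP, 0.676% for Ad-JP2 and 0.130% for Ad-shJP2.

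eIF3j is a loosely bound subunit with 2 near-identical genes in the mouse, so reads may have been divided between them. Eif3j2 read 6.85, 6.52 and 7.68 TPM in Ad-GFP, 18.1, 17.0 and 18.9 TPM in Ad-JP2 and 2.33, 3.24 and 4.34 TPM in Ad-shJP2. Its changes of 1.25 ± 0.15 (adjusted p = 0.00052) and -0.92 ± 0.15 (adjusted p = 0.000629) held after the GC and length correction at 0.88 and -0.58. Eif3j1 read 1.09, 0.894 and 0.876 TPM, then 2.35, 1.83 and 2.84 TPM, then 0.462, 0.589 and 0.438 TPM in the same order. The groups of both genes stood apart, with Ad-JP2 high and Ad-shJP2 low, and their ratio was 0.137 ± 0.0223, 0.129 ± 0.0215 and 0.160 ± 0.0522, with overlapping groups. Eif3j1 passed the filter only through Ad-JP2, where it is high, so the filter favoured a call there and that call is no support by itself. Its value there was 0.77 ± 0.13 (adjusted p = 0.00313), and it is among the 11 calls. Its fall of 0.38 ± 0.13 in Ad-shJP2 (adjusted p = 0.0274) was not called without Ad-GFP replicate 1, Ad-shJP2 replicate 1 or Ad-shJP2 replicate 3 (adjusted p from 0.0681 to 0.0846), after quantile normalization (-0.12) or with the replicate block (0.0504). The GC and length correction ended that call too (-0.28, adjusted p = 0.0934).

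Eif3e, another subunit of the complex, read 83.5, 90.4 and 87.4 TPM in Ad-GFP, 104, 109 and 125 TPM in Ad-JP2 and 49.5, 48.5 and 53.6 TPM in Ad-shJP2. The order of the groups was that of Eif3a, with no overlap. It rose by 0.36 ± 0.07 in Ad-JP2 (adjusted p = 0.00713), a call that the GC and length correction ended (0.02, adjusted p = 0.81), and fell by 0.77 ± 0.07 in Ad-shJP2 (adjusted p = 1.31e-05, -0.49 corrected). The pseudogene rows Eif3s6-ps1 and Eif3s6-ps2 can share its reads, and the 3 rows summed to 113 ± 2.09, 143 ± 10.3 and 64.6 ± 4.24 TPM. Eif3k, a small peripheral subunit, read 369, 365 and 359 TPM in Ad-GFP, 342, 346 and 352 TPM in Ad-JP2 and 435, 427 and 445 TPM in Ad-shJP2. Its rise in Ad-shJP2 was 0.26 ± 0.02 (adjusted p = 1.57e-05), and the corrected value was -0.04. In Ad-JP2 it was not called at -0.07 (adjusted p = 0.0807), and the corrected value was 0.14. The other subunits called in Ad-shJP2 were Eif3b, Eif3c, Eif3d, Eif3g, Eif3h, Eif3i and Eif3l, which rose by 0.12 to 0.34, and Eif3m, which fell by 0.22 (not called with median-of-ratios scaling, -0.11, or after the GC and length correction, -0.01). The Eif3d libraries of Ad-GFP and Ad-shJP2 overlapped. After the correction the sign in Ad-shJP2 turned for Eif3i (-0.14, adjusted p = 0.00038, called lower) and, with no call, for Eif3d (-0.03), Eif3g (-0.05), Eif3h (-0.00) and Eif3l (-0.01). Between Ad-JP2 and Ad-shJP2 the correction turned Eif3m from 0.29 to -0.17 (adjusted p = 0.000998). After the correction 2 eIF3 genes were called higher and 3 lower in Ad-shJP2, and 7 higher and 1 lower in Ad-JP2.

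**Figure D3:**
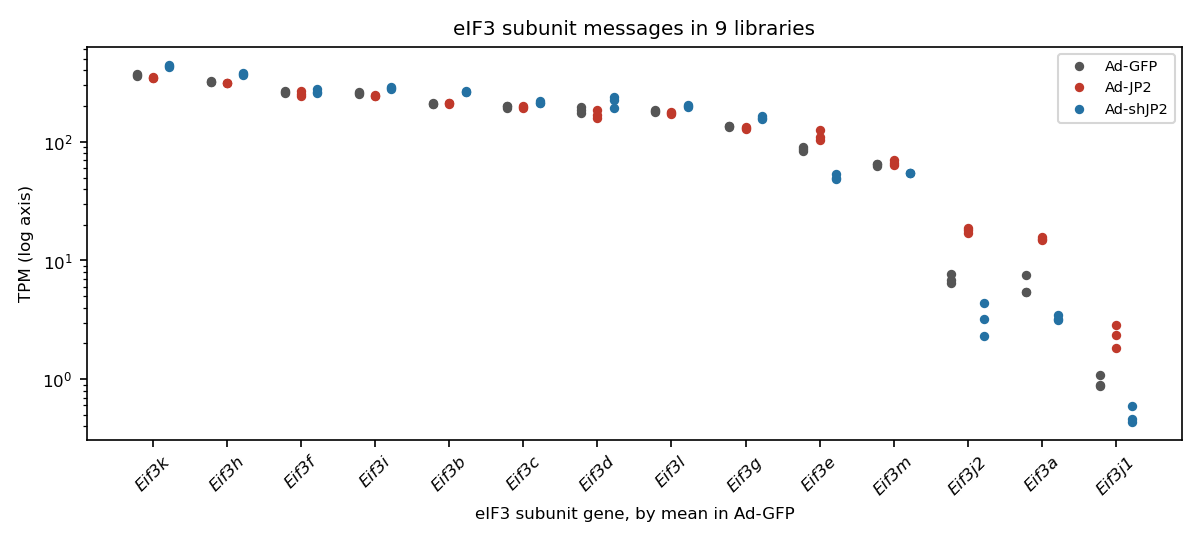
TPM (y axis, logarithmic) of the 14 eIF3 genes in the 9 libraries (points, coloured by group), ordered by their mean in Ad-GFP on the x axis. Eif3k reads 364 TPM on average in Ad-GFP and Eif3j1 0.953 TPM, and the groups lie farthest apart for Eif3j2, Eif3a and Eif3j1 at the right.

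At the cap, the 3 tested eIF4E genes parted. Eif4e, the main cap-binding protein, read 86.8, 82.3 and 84.2 TPM in Ad-GFP, 83.7, 87.2 and 89.6 TPM in Ad-JP2 and 100, 109 and 105 TPM in Ad-shJP2. Ad-GFP and Ad-JP2 overlapped, and Ad-shJP2 was higher by 0.31 ± 0.04 (adjusted p = 0.000165, 0.42 corrected for GC and length). Eif4e2, a cap-binding homologue linked to repression, was the most abundant at 181 ± 3.68, 177 ± 1.91 and 211 ± 6.29 TPM, and its rise of 0.22 ± 0.03 in Ad-shJP2 shrank to 0.01 on correction. Eif4e3, the third homologue, read 3.20, 3.03 and 3.32 TPM in Ad-GFP, 4.59, 4.51 and 4.67 TPM in Ad-JP2 and 0.978, 0.961 and 1.03 TPM in Ad-shJP2. Its groups were narrow and did not overlap. It rose by 0.42 ± 0.07 in Ad-JP2 (adjusted p = 0.00428). That rise was not called on correction (0.23, adjusted p = 0.0578) or with quantile normalization (0.25, adjusted p = 0.0543). Eif4e3 fell by 1.07 ± 0.07 in Ad-shJP2 (adjusted p = 2.29e-06, -0.85 corrected).

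The repressors that bind eIF4E were not called in Ad-JP2 and split in Ad-shJP2. Eif4ebp1 was high at 259 ± 1.41 TPM in Ad-GFP, 248 ± 6.96 in Ad-JP2 and 268 ± 4.12 TPM in Ad-shJP2, with no overlap of the groups, and was called in neither comparison. Median-of-ratios scaling called it lower in Ad-JP2 (-0.09, adjusted p = 0.0375) and higher in Ad-shJP2 (0.16, adjusted p = 0.000353), while the GC and length correction called it lower in Ad-shJP2 (-0.12, adjusted p = 0.00494). Eif4ebp2 read 35.2, 36.2 and 35.2 TPM in Ad-GFP, 35.7, 37.7 and 32.1 TPM in Ad-JP2 and 25.9, 25.1 and 26.1 TPM in Ad-shJP2. Only Ad-shJP2 stood apart, lower by 0.45 ± 0.06 (adjusted p = 0.000116). Eif4enif1, which carries eIF4E into the nucleus, went from 22.2 ± 2.22 TPM in Ad-GFP to 28.5 ± 0.986 TPM in Ad-shJP2 and rose by 0.35 ± 0.07 (adjusted p = 0.0022). Summed 4E-BP TPM over Eif4e was 3.5 ± 0.0878 for Ad-GFP, 3.26 ± 0.204 for Ad-JP2 and 2.81 ± 0.135 for Ad-shJP2.

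eIF4G is the scaffold between eIF4E, eIF4A and eIF3. Its 3 messages made up 12% ± 0.207 of all initiation factor TPM for Ad-GFP, 14% ± 0.793 for Ad-JP2 and 7.94% ± 0.235 for Ad-shJP2. Eif4g2, a homologue that lacks the eIF4E site, carried most of it, reading 496, 499 and 475 TPM in Ad-GFP, 673, 616 and 594 TPM in Ad-JP2 and 336, 305 and 326 TPM in Ad-shJP2. Those groups did not overlap. It rose by 0.35 ± 0.05 in Ad-JP2 (adjusted p = 0.00131), a call lost on GC and length correction (0.10, adjusted p = 0.273), and fell by 0.60 ± 0.05 in Ad-shJP2 (adjusted p = 8.45e-06, -0.33 corrected). Eif4g3 read 25.2, 22.9 and 22.7 TPM in Ad-GFP, 34.5, 31.4 and 33.2 TPM in Ad-JP2 and 21.2, 16.7 and 19.5 TPM in Ad-shJP2. It rose by 0.47 ± 0.08 in Ad-JP2 (adjusted p = 0.00458, 0.40 corrected). Its fall of 0.29 ± 0.08 in Ad-shJP2 (adjusted p = 0.0135) was not called without Ad-GFP replicate 1 (adjusted p = 0.0517), with median-of-ratios scaling (0.0913), quantile normalization (0.109) or the correction (0.0668). Eif4g1, the major scaffold, was 305 ± 4.79, 321 ± 22.8 and 253 ± 3.07 TPM. It fell by 0.27 ± 0.05 in Ad-shJP2 (adjusted p = 0.000856) and was not called in Ad-JP2 (0.07), except without Ad-JP2 replicate 3, where it was 0.13 (adjusted p = 0.0117).

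The eIF4A helicases and their helpers held the 2 falls in Ad-JP2. Eif4a1, the main helicase, read 189.7, 189 and 189 TPM in Ad-GFP, 166, 171 and 172 TPM in Ad-JP2 and 219, 223 and 202 TPM in Ad-shJP2. The groups did not overlap, and the changes were -0.16 ± 0.04 (adjusted p = 0.0221) and 0.18 ± 0.04 (adjusted p = 0.00287). The pseudogene row Eif4a-ps4 read 896 ± 7.52, 862 ± 2.19 and 1018 ± 15.6 TPM and may hold reads of Eif4a1, whose level is therefore uncertain; the 2 rows summed to 1085 ± 7.17, 1032 ± 3.98 and 1233 ± 7.29 TPM. Eif4a3, the helicase of the exon junction complex, read 79.1, 79.8 and 84.1 TPM, then 70.8, 73.3 and 74.2 TPM, then 105, 102 and 107 TPM in the same order of groups. It too was lowest in Ad-JP2 and highest in Ad-shJP2, at -0.15 ± 0.04 (adjusted p = 0.0181) and 0.37 ± 0.04 (adjusted p = 2.07e-05). The rise of Eif4a1 in Ad-shJP2 was not called after the GC and length correction (0.09, adjusted p = 0.0785). Neither fall in Ad-JP2 was called after the GC and length correction or by limma without a trend. Leaving out any Ad-GFP library, Ad-JP2 replicate 1 or Ad-JP2 replicate 2 ended the call of Eif4a1 (adjusted p from 0.0602 to 0.0813), and leaving out Ad-GFP replicate 3, Ad-JP2 replicate 1 or Ad-JP2 replicate 2 ended that of Eif4a3 (0.0515 to 0.0696).

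Eif4a2, the second cytoplasmic helicase, read 40.3, 39.9 and 42.3 TPM in Ad-GFP, 47.1, 39.9 and 49.1 TPM in Ad-JP2 and 42.2, 37.5 and 35.7 TPM in Ad-shJP2, with overlapping groups and no call against Ad-GFP. Eif4b, a cofactor of the helicase, read 139, 141 and 140.4 TPM in Ad-GFP, 132, 133 and 138 TPM in Ad-JP2 and 117, 115 and 111 TPM in Ad-shJP2. It was lowest in every Ad-shJP2 library and fell there by 0.29 ± 0.03 (adjusted p = 2.88e-05, -0.21 corrected). Eif4h, a related cofactor, was 232 ± 3.27, 228 ± 2.67 and 239 ± 6.51 TPM and was called in neither comparison, although median-of-ratios scaling gave 0.15 and the correction -0.09 in Ad-shJP2, both called. Eif4a3l1 (1.29 ± 0.415, 1.32 ± 0.554 and 1.52 ± 0.188 TPM) and Eif4a3l2 (14.7 ± 1.92, 13.4 ± 0.468 and 17.0 ± 1.06 TPM) are near copies of Eif4a3 and were called in neither comparison, except Eif4a3l2 in Ad-shJP2 with median-of-ratios scaling (0.31, adjusted p = 0.0119) and without Ad-GFP replicate 1.

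Among the late factors, Eif5b, the GTPase that joins the subunits, was near the lower limit of the test at 1.15, 0.996 and 1.35 TPM in Ad-GFP, 1.00, 1.94 and 1.36 TPM in Ad-JP2 and 0.575, 0.726 and 0.972 TPM in Ad-shJP2. The Ad-shJP2 values lay under the other 6, yet it was called against Ad-GFP in neither group (0.15 and -0.30). Eif6, which keeps free large subunits from joining, read 143, 145 and 145 TPM in Ad-GFP, 141, 149 and 145 TPM in Ad-JP2 and 213, 221 and 213 TPM in Ad-shJP2. Ad-GFP and Ad-JP2 overlapped and Ad-shJP2 was 1.5-fold above Ad-GFP, a rise of 0.58 ± 0.03 (adjusted p = 2.68e-07, 0.31 corrected).

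eIF5A helps the ribosome through difficult peptide bonds, and its 2 genes moved apart. Eif5a was the most abundant member at 1187, 1202 and 1191 TPM in Ad-GFP, 1144, 1143 and 1217 TPM in Ad-JP2 and 1585, 1534 and 1613 TPM in Ad-shJP2. Only Ad-shJP2 stood apart, higher by 0.40 ± 0.03 (adjusted p = 3.19e-06, 0.15 corrected). The pseudogene row Eif5al3-ps may share its reads, and both rows summed to 1363 ± 11.4, 1323 ± 30.7 and 1794 ± 27.6 TPM. Eif5a2 read 2.36, 2.81 and 2.72 TPM in Ad-GFP, 4.71, 4.76 and 4.79 TPM in Ad-JP2 and 0.713, 0.577 and 0.764 TPM in Ad-shJP2. Its groups did not overlap, and it rose by 0.67 ± 0.09 in Ad-JP2 (adjusted p = 0.000816) and fell by 1.11 ± 0.09 in Ad-shJP2 (adjusted p = 5.6e-06). On correction the rise was 0.10 and not called (adjusted p = 0.447), and the fall was 0.48 and called.

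Set directly against each other, Ad-JP2 and Ad-shJP2 were farthest apart on the log2(TPM + 1) scale for Eif2s2, at 2.51 ± 0.05 (adjusted p = 1.12e-09). In mean TPM the gap was 6.94-fold for Eif5a2 and 6.29-fold for Eif2s2. Eif3j2 (2.17 ± 0.15), Eif3a (1.92 ± 0.11), Eif5a2 (1.77 ± 0.09), Eif1a (1.56 ± 0.08) and Eif2a (1.53 ± 0.13) followed. All 6 were also called higher in Ad-JP2 after the GC and length correction, with Eif2s2 at 1.92 and Eif5a2 at 0.58. On the other side were Eif1ad (-1.07 ± 0.05, -0.69 corrected), Eif2b2 (-0.61 ± 0.09), Eif6 (-0.57 ± 0.03, -0.14 corrected) and Eif4a3 (-0.52 ± 0.04, -0.15 corrected), and of these 4 Eif2b2 was not called on correction (-0.11, adjusted p = 0.32). Eif5b was called higher in Ad-JP2 at 0.46 ± 0.16 (adjusted p = 0.0289) and lower on correction (-0.58, adjusted p = 0.00937). It was not called with no filter (adjusted p = 0.0555), with median-of-ratios scaling (0.0514) or quantile normalization (0.626), or without Ad-JP2 replicate 2 or 3 or Ad-shJP2 replicate 1 or 2 (0.0591 to 0.105).

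Ratios of paralogues within a library do not depend on a scaling factor of that library. Eif5a to Eif5a2 was 456 ± 40.9 for Ad-GFP, 246 ± 7.57 for Ad-JP2 and 2331 ± 289 for Ad-shJP2. Eif4e to Eif4e3 was 26.5 ± 1.01, 18.9 ± 0.596 and 106 ± 6.08, and Eif1a to Eif1ax was 0.370 ± 0.0137, 0.515 ± 0.1 and 0.185 ± 0.0264. In these 3 ratios all 3 groups were apart. They do depend on the GC and length correction, which treats the genes of a pair differently: in Ad-JP2 the corrected changes were 0.14 for Eif5a beside 0.10 for Eif5a2, and 0.19 for Eif1a beside 0.15 for Eif1ax. Eif4ebp1 to Eif4ebp2 was 7.31 ± 0.142, 7.07 ± 0.394 and 10.4 ± 0.0961, and only Ad-shJP2 stood apart. Eif4a1 to Eif4a2 was 4.64 ± 0.150, 3.77 ± 0.449 and 5.60 ± 0.377, and Eif4g1 to Eif4g3 13.0 ± 0.554, 9.72 ± 0.951 and 13.4 ± 1.49. The first of these had 3 separate groups, and in the second only Ad-JP2 was apart. Ratios with Eif4a1, Eif5a or Eif1 leave out pseudogene rows that may hold their reads. Eif4a-ps4 alone read 896 ± 7.52 TPM in Ad-GFP, so the size of the Eif4a1 ratio is uncertain. Eif1 to Eif1b was 6.81 ± 0.343, 7.18 ± 1.00 and 9.12 ± 0.717, with Ad-shJP2 alone apart, and Eif4e to Eif4e2 overlapped in all groups at 0.467 ± 0.0221, 0.492 ± 0.0133 and 0.496 ± 0.0331. An exact two-sided permutation test of 3 against 3 libraries cannot give a p under 0.1, which these separated ratios reached; over the 30 ratio comparisons the lowest adjusted p was 0.15, so none passed.

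Summed over all 69 genes, initiation factor messages came to 6812 ± 17.4 TPM for Ad-GFP, 6990 ± 32.0 for Ad-JP2 and 7489 ± 49.4 for Ad-shJP2. eIF3 held 33.5% ± 0.160 of it, 32.3% ± 0.109 and 33.8% ± 0.433, and eIF5A 17.6% ± 0.152, 16.8% ± 0.628 and 21.1% ± 0.403. The eIF5A share was above the Ad-GFP range in every Ad-shJP2 library. These sums and shares leave out the Eif2s3 names and the pseudogene rows, the latter of which may hold reads of members.

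The changes of the members ran with base composition and with length. Over the 49 members, the change in Ad-JP2 correlated with the GC content of the transcripts at a Pearson r of -0.60 and a Spearman rho of -0.60, and the change in Ad-shJP2 at 0.66 and 0.54. Over the 14025 tested genes with a GC value the figures were -0.42 and -0.40, and 0.31 and 0.32. These are descriptions across genes of the same libraries, which are not independent. Of the 14 members with a GC content below 45%, 8 were called higher in Ad-JP2 and none lower, where 41.1% of all genes in that range were higher, and 10 were called lower in Ad-shJP2, where 57.9% of all were lower. Of the 7 members from 45% to 50%, 1 was higher and 1 lower in Ad-JP2, where 17.9% of all were higher and 1.59% lower. In Ad-shJP2 5 of these 7 were higher and 1 lower, where 16.1% of all were higher and 44.7% lower. Of the 22 members from 50% to 55%, 1 was higher and 1 lower in Ad-JP2, and 12 were higher and 4 lower in Ad-shJP2. Of all genes in that range 4.81% were higher and 2.01% lower in Ad-JP2, and 26.8% were higher and 30.5% lower in Ad-shJP2. Eif3j1 (56.0% GC) and Eif4g3 (54.9%) were GC-rich members that rose in Ad-JP2.

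With each library corrected for GC content and length, 14 members were called higher and 1 lower in Ad-JP2 (15.4% and 3.26% of all genes, 18.6% in either direction), and 6 of the 13 calls above remained: Eif2s2, Eif3a, Eif3j2, Eif4g3, Eif5 and Eif3j1, the last with the limit of the filter given above. The 9 others were new calls, among them Eif6 (0.17), Eif1 (0.15), Eif5a (0.14) and Eif3k (0.14). In Ad-shJP2, 12 were called higher and 18 lower (18.1% and 40.5% of all genes, 58.6% in either direction), and 24 of the 39 calls remained, among them Eif2s2 (-1.16), Eif2a (-0.95), Eif4e3 (-0.85), Eif1a (-0.81), Eif1ad (0.75), Eif2b3 (0.44) and Eif6 (0.31). Between Ad-JP2 and Ad-shJP2, 25 members were higher and 13 lower, against 18 and 25 without the correction. Of all genes, 48.0% were then higher and 18.2% lower, 66.3% in either direction. The part of GC content and length in these changes was not tested.

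**Figure D4:**
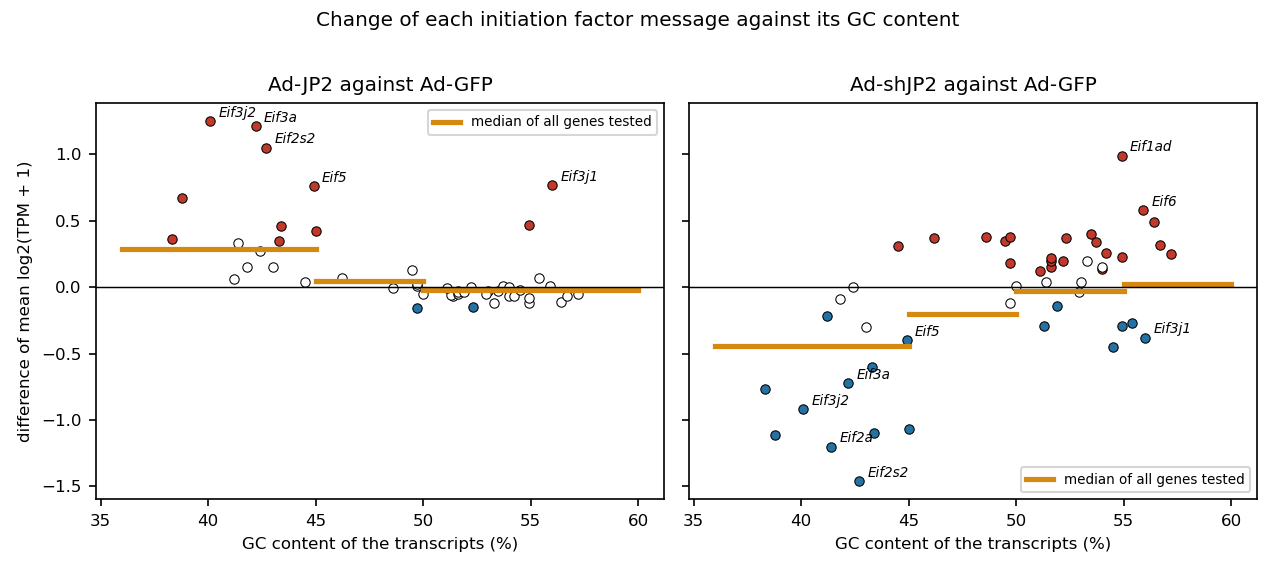
Difference of mean log2(TPM + 1) from Ad-GFP (y axis) against the mean GC content of each gene's transcripts in percent (x axis) for the 49 members, in Ad-JP2 (left) and Ad-shJP2 (right), red called higher, blue called lower, white not called. Orange lines give the median of all genes tested in each GC range, which below 45% is 0.29 in Ad-JP2 and -0.44 in Ad-shJP2; Eif2s2, Eif3a and Eif3j2 lie beyond those medians in both panels.

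The rest of the translation machinery was read from 57 listed genes, all tested. Of 14 elongation and termination factors, 1 rose and 1 fell in Ad-JP2 and 8 rose and 4 fell in Ad-shJP2. That is 14.3% called beside 15.0% of all genes in Ad-JP2 and 85.7% beside 59.4% in Ad-shJP2, where the GC and length correction left 3 higher and 4 lower. Etf1, the release factor that reads stop codons, went from 52.2 ± 1.20 TPM in Ad-GFP to 82.4 ± 1.92 in Ad-JP2 (0.65 ± 0.05) and 24.6 ± 1.86 in Ad-shJP2 (-1.06 ± 0.05). Eef2k, the kinase that brakes elongation, fell by 0.71 ± 0.06 in Ad-shJP2. Of 5 poly(A)-binding proteins and partners, 3 rose in Ad-JP2 (60% called, 15.0% of all genes) and 4 fell in Ad-shJP2 (80.0%, 59.4% of all genes). After the correction 2 were higher and 1 lower in Ad-JP2, and 4 were lower in Ad-shJP2. Pabpc1 went from 480.4 ± 11.3 TPM to 724 ± 35.0 in Ad-JP2 (0.59 ± 0.04) and 217 ± 6.36 in Ad-shJP2 (-1.14 ± 0.04). After the GC and length correction these were 0.50 and -1.03.

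Of 10 recycling, scanning and start-site factors, 6 rose and none fell in Ad-JP2 (60% called, 15.0% of all genes), and 2 rose and 7 fell in Ad-shJP2 (90.0%, 59.4% of all genes). After the correction 6 were higher in Ad-JP2, and 2 were higher and 6 lower in Ad-shJP2. Ddx3x, a helicase for structured leaders, went from 23.1 ± 2.49 TPM to 72.3 ± 3.62 (1.61 ± 0.09) and 9.39 ± 1.09 (-1.21 ± 0.09), and Abce1, which splits ribosomes after termination, from 18.1 ± 0.895 TPM to 44.8 ± 1.96 (1.27 ± 0.08) and 6.76 ± 0.742 (-1.30 ± 0.08). Dhx29, a scanning helicase on the small subunit, fell by 1.28 ± 0.08 in Ad-shJP2. In Ad-shJP2 the corrected values were -0.77 for Ddx3x, -0.77 for Abce1 and -0.95 for Dhx29.

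Of 14 integrated stress response genes, 2 rose in Ad-JP2 (14.3% called, 15.0% of all genes). In Ad-shJP2, 5 of them rose and 5 fell (71.4%, 59.4% of all genes). After the correction 5 were higher in Ad-JP2, and 4 were higher and 5 lower in Ad-shJP2. Ppp1r15a, the phosphatase subunit that restores eIF2, went from 50.1 ± 0.0545 TPM in Ad-GFP to 51.0 ± 4.25 in Ad-JP2 and 95.1 ± 6.57 in Ad-shJP2, where it rose by 0.91 ± 0.07 (adjusted p = 3.37e-06, 0.69 corrected). Impact, an inhibitor of the kinase GCN2, rose by 0.47 ± 0.11 in Ad-JP2 and fell by 1.13 ± 0.11 in Ad-shJP2. Eif2ak2, the double-stranded RNA kinase PKR, rose by 0.79 ± 0.12 in Ad-JP2. Eif2ak3, the endoplasmic reticulum kinase PERK, fell by 0.71 ± 0.08 in Ad-shJP2. Of 14 mTOR and cap control genes, 3 rose in Ad-JP2 (21.4% called, 15.0% of all genes) and 2 rose and 3 fell in Ad-shJP2 (35.7%, 59.4% of all genes). After the correction 2 were higher and 1 lower in Ad-JP2, and 4 were higher and 3 lower in Ad-shJP2. Pdcd4, an inhibitor of eIF4A, went from 4.68 ± 0.239 TPM to 6.56 ± 0.407 (0.41 ± 0.08) and 1.01 ± 0.129 (-1.50 ± 0.08), and Larp1, a binder of capped ribosomal protein messages, from 21.0 ± 0.101 TPM to 35.9 ± 1.48 (0.75 ± 0.05) and 15.3 ± 0.554 (-0.43 ± 0.05). Rps6kb1, the S6 kinase, fell by 1.08 ± 0.12 in Ad-shJP2.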

How the data were processed

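The 9 libraries in 3 groups were compared, by title. TPM per gene were deposited by the authors with a gene length, per the file headers; GRCm39, Salmon, DRAGEN and DESeq2 are listed, per the submitters' processing notes, without versions or roles. Depth was estimated from the steps of low values, so it is approximate. The share of low genes within 0.1 of a whole read was 94.7% in Ad-GFP replicate 3. It was only 39.1% to 59.7% in the others, so their depths are uncertain. Values were transformed to log2(TPM + 1), which understates changes of low genes; folds are ratios of mean TPM. Genes at 1 TPM or more in at least 3 libraries (14215) were fitted with limma 3.58.1 (R 4.3.3) as 3 group means with a mean-variance trend, two-sided, Benjamini-Hochberg over all genes tested, call at adjusted p under 0.05; an adjusted p of a gene is from this test unless an alternative is named. GC content came from GENCODE M21 transcripts matched by gene ID (49 of 49 members), in a natural spline of 5 degrees of freedom with log2 length per library. Promoter windows were RefSeq's, GRCm38.p6, not the authors' build.

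Members and gene lists were chosen with earlier results of these data known. Members given per library were up to 4 called per complex and comparison with Ad-GFP by size of change, the highest and lowest of each complex, the paralogue pairs and those called in opposite directions; up to 3 called genes per related list were also named. GC ranges, pseudogene sums and promoter windows were chosen after values were seen. Alternatives were a pseudocount of 0.1, no filter, a filter of 5 TPM, median-of-ratios and quantile scaling, the replicate number as a block, the GC and length correction, no trend, and each library left out.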

Additional observations from a re-analysis of the deposited data

How the results depend on the processing

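Of the settings other than a library left out, the GC and length correction ended the most calls (6 of 13 remained in Ad-JP2 and 24 of 39 in Ad-shJP2). A pseudocount of 0.1 ended none of these calls. The 2 members lower in Ad-JP2 became 4 with median-of-ratios scaling, 1 with the GC and length correction and 0 without a trend, and 0 to 2 with a library left out. With the same correction 12 members were higher in Ad-shJP2, and 13 were lower in Ad-JP2 than in Ad-shJP2. Among members named by the rule and called with or without it, it turned the sign for Eif3k (0.14), Eif4e2 (0.12) and Eif5a (0.14) in Ad-JP2, for Eif3k (-0.04), Eif4ebp1 (-0.12) and Eif4h (-0.09) in Ad-shJP2, and between Ad-JP2 and Ad-shJP2 for Eif1b (0.43), Eif2b4 (0.04), Eif2s1 (-0.41), Eif3k (0.18), Eif4a2 (-0.25), Eif4e2 (0.11), Eif4ebp1 (0.18), Eif4h (0.14) and Eif5b (-0.58). The related translation genes lower in Ad-JP2, 1 as reported, were 2 with median-of-ratios, 3 with quantile scaling, 2 with the correction and 1 to 2 with a library left out. Jph2 in Ad-shJP2 was called with quantile scaling (-0.13) and without Ad-JP2 replicate 1 or 3, with values from -0.13 to -0.09 over the libraries left out. As ratios of TPM + 1, Eif4e to Eif4e3 differed by -0.38, 1.38 and -1.76 (log2, in Ad-JP2, in Ad-shJP2, and between them), Eif5a to Eif5a2 by -0.70, 1.51 and -2.21, and Eif3j1 to Eif3j2 by -0.48 in Ad-JP2 and -1.02 between Ad-JP2 and Ad-shJP2, since adding 1 shrinks low levels. With a library left out, the log2 difference ran from -0.04 to 0.11 for Eif4g1 to Eif4g3 in Ad-shJP2, from -0.05 to 0.04 for Eif4e to Eif4e2 between Ad-JP2 and Ad-shJP2, from -0.04 to 0.14 for Eif1 to Eif1b in Ad-JP2 and from -0.20 to 0.05 for Eif3j1 to Eif3j2 in Ad-JP2. Deviations of libraries with equal numbers correlated at -0.113 to 0.11, and those with unequal numbers at -0.196 to 0.155. With 3 libraries a group, these overlapping ranges cannot decide whether the numbers pair the samples. With the replicate block, 12 members were higher and 2 lower in Ad-JP2 and 22 higher and 16 lower in Ad-shJP2; 13 of 13 and 38 of 39 calls remained, all but Eif3j1. The call of Eif3d in Ad-shJP2 ended without Ad-GFP replicate 2 or 3, Ad-JP2 replicate 2, or Ad-shJP2 replicate 1 or 2, while Eif1ax became called without Ad-JP2 replicate 3 and Eif4a3l2 without Ad-GFP replicate 1. Except where stated, the cause of these changes was not tested. Limits are the 3 libraries a group, the lower estimated depth of the Ad-shJP2 libraries and TPM with no counts behind them. Reads that pseudogenes and paralogues may share, and messages in place of protein, are further limits.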

Other observations

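Eif2s2, Eif3a, Eif3j1, Eif3j2, Eif5a2 and Eif4e3 were among the least abundant members of their complexes, and message level and length were set side by side after these values were seen. Across the 49 members, the level in Ad-GFP correlated with the deposited gene length at a Spearman rho of -0.37 (all genes -0.18) and with GC content at 0.21 (all genes 0.16). Across the 14 eIF3 genes, which share 1 complex, the rho with length was -0.50 and with GC content 0.25. The longest of the low members were Eif5b (6158 bases, 1.17 ± 0.178 TPM in Ad-GFP), Eif3j1 (5413 bases, 0.953 ± 0.118 TPM) and Eif5a2 (5027 bases, 2.63 ± 0.238 TPM). These are descriptions across genes of the same libraries, with no test.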
